A study of Mus musculus with 4 samples.

Results

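The mTORC1, autophagy and mitophagy machinery was examined in mouse sciatic nerve as a list of 47 genes, chosen by name and matched to array probes through the platform's gene symbols. Of these 47, 43 had at least 1 named probe, with 97 probes in all, and 39 had a detected probe and were tested among 10858 genes. The arrays carried RNA from whole nerves at postnatal day 60, on a mixed FVB/C57BL/6 background. LKB1-SCKO mice lacked the kinase LKB1, the product of Stk11, in Schwann cells, and the controls carried the floxed LKB1 allele without Cre recombinase. The Cre driver is not given in the sources used here, and cells of the nerve other than Schwann cells keep the gene. Each genotype had 2 arrays, and each array held pooled RNA of 3 nerves taken from 3 separate animals, so that 6 mice stood behind each genotype. The series title places the age before the axon degeneration of the mutants.

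The mTOR kinase works in a complex, mTORC1, that promotes protein and lipid synthesis and holds back autophagy when nutrients and growth factors are plentiful. LKB1 activates AMPK, which restrains mTORC1 through TSC2 and raptor and phosphorylates the autophagy kinase ULK1. Autophagy encloses cytoplasm in a double membrane marked by LC3 and GABARAP proteins and delivers it to lysosomes, and mitophagy is the same process directed at mitochondria. In myelinating Schwann cells mTORC1 activity is known to influence myelin growth, and autophagy is known to take part in the clearance of myelin after nerve injury. Most of this control acts on proteins through phosphorylation and lipidation, which a transcript array does not measure.

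Between 43.3% and 45.6% of the 45281 probes were detected per array. Stk11, the targeted gene, had log2 intensities of 9.70 and 9.83 in controls, against 8.93 and 9.01 in LKB1-SCKO (log2 fold change -0.80, limma adjusted p = 0.0448). Stk11 no longer passed when any 1 pool was left out, with adjusted p between 0.0718 and 0.216, and the position of its probe relative to the deletion is not given in the sources used here. Schwann cell markers were present, with 9 of 12 tested, among them the transcription factor gene Sox10 at 13.67 and 13.49 in controls and 13.67 and 13.71 in LKB1-SCKO. The mean log2 level of those 9 markers was 12.16 and 12.18 in controls, against 11.94 and 11.88 in LKB1-SCKO. Of the 9, 0 passed the threshold and 4 (44.4%) had an unadjusted p under 0.05 (limma), all lower. Across all genes 10.4% were lower at that p. The pools also differed in markers of other cells. The mean log2 level of 16 skeletal muscle markers was 11.01 and 10.84 in controls, against 9.37 and 11.17 in LKB1-SCKO pools 1 and 2. That of 15 macrophage markers was 8.71 and 9.35 in controls, against 9.80 and 9.49 in LKB1-SCKO. Of these 15, 12 were above 0 and 3 below, with 4 past the threshold, all higher, as were 2.46% of all genes. The mean of 4 red blood cell markers was 9.05 and 8.52 in controls, against 9.68 and 11.04 in LKB1-SCKO. All 4 were above 0 and 0 passed the threshold. At an unadjusted p under 0.05 (limma) 3 (75%) were higher, beside 12% of all genes. The mean of 8 adipocyte markers was 9.49 and 8.23 in controls, against 9.65 and 9.16 in LKB1-SCKO, with 7 above 0, 0 past the threshold and 0 at an unadjusted p under 0.05. The part of these cells in the values below was not tested, and in pooled whole nerve fewer cells of a type cannot be told apart from less RNA per cell.

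None of the 39 tested genes passed the threshold in either direction. Across all genes 3.79% passed, with an adjusted p under 0.05 (limma, Benjamini-Hochberg over all genes), with 267 genes or 2.46% up and 145 or 1.34% down. At an unadjusted p under 0.05 there were 3 of the 39, or 7.69%, beside 22.4% of all genes, and all 3 (Map1lc3b, Foxo1 and Gabarapl2) were lower in LKB1-SCKO, as were 10.4% of all genes at that p. The median log2 fold change, LKB1-SCKO over control, was -0.05 for the 39 genes and 0.01 for all genes, with 16 of the 39 above 0 and 23 below. The median size regardless of sign was 0.18 for the 39 and 0.22 for all genes, and no member differed by more than 1 on the log2 scale, as 4.27% of all genes did. All 39 were detected on both control arrays, and 37 of them on all 4 arrays. The other 2, Tfeb and Foxo3, were detected on 1 of 2 LKB1-SCKO arrays and so entered the test through the controls only. Among genes detected on all 4 arrays, the median log2 fold change was -0.01 for 37 members and 0.01 for all genes. Of those 37 members, 16 were above 0.

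**Figure D1:**
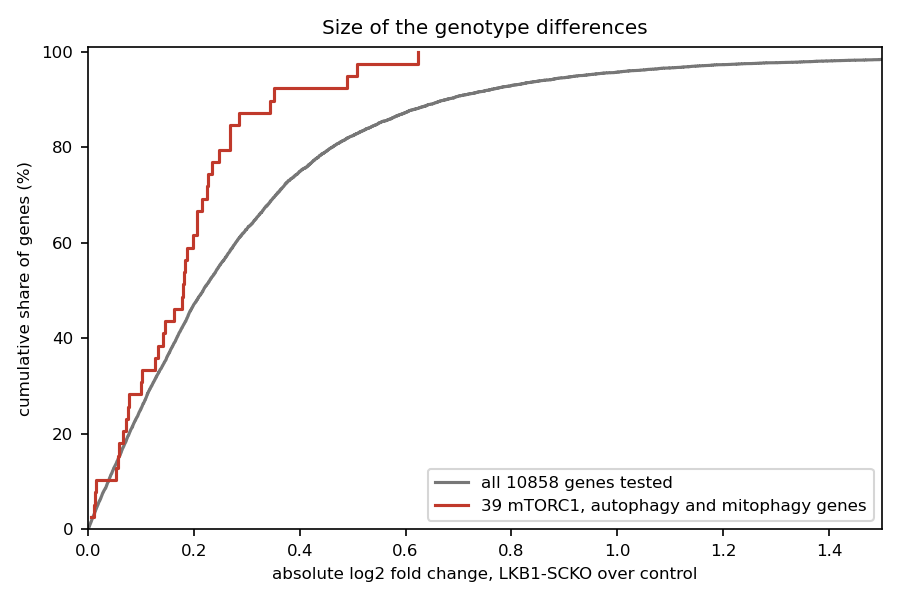
The step lines give the cumulative share of genes (%) against the absolute log2 fold change between genotypes, for the 39 tested mTORC1, autophagy and mitophagy genes and for all 10858 genes tested. The red line ends at Map1lc3b (0.62), while the grey line continues beyond 1 on the log2 scale; values over 1.5 are not shown.

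The width of the intervals shows what 2 pools per genotype could resolve. For 37 of the 39 genes the 95% interval of the log2 fold change, not adjusted for multiple tests, lay within a 2-fold change in both directions, which was so for 82.1% of all genes. The exceptions were Atg3, from -2.12 to 2.53, and Foxo1, whose lower bound lay just past a 2-fold change. The pools of the genotypes did not overlap for 19 of the 39 genes, 10 higher and 9 lower in LKB1-SCKO, which is 48.7% against a share of 55.1% among all genes (29.3% higher and 25.8% lower). For 16 of the 39, or 41.0%, the difference between genotype means was larger than the gap between the 2 pools of either genotype, against 43.1% of all genes.

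**Figure D2:**
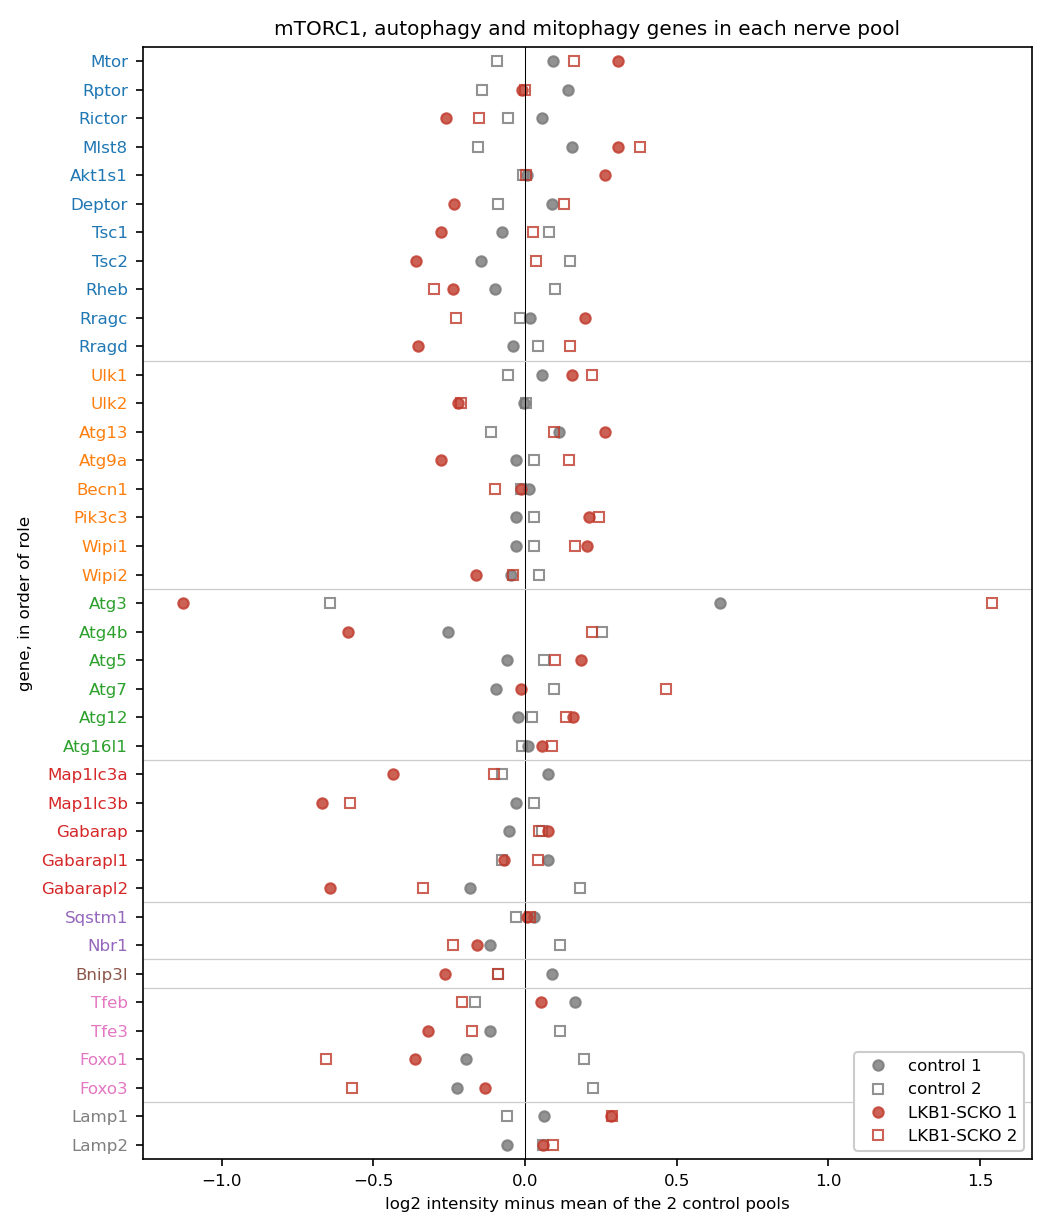
Each row is a gene, in order of role and coloured by it, and the x axis gives the log2 intensity of each pool minus the mean of the 2 control pools. Most points lie within 0.5 of the control mean, and Atg3 shows the widest scatter within a genotype. The pools of the genotypes do not overlap for 48.7% of the 39 genes, Map1lc3b among them, beside 55.1% of all genes.

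LKB1-SCKO 1 was the lowest of the 4 pools for 15 of the 39 genes (38.5%), against 28.1% of all genes, and it was also the pool with the low skeletal muscle markers. The median over the 39 genes was -0.11 when LKB1-SCKO 1 was set against either control pool and 0.01 when LKB1-SCKO 2 was set against either. Without LKB1-SCKO 1 the median log2 fold change of the list stood at 0.03, with 23 of 39 genes above 0, and without control 1 it was 0.0048, with 20 of 39 above 0. The sign of the median thus depended on single pools.

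Promoter sequence is shown for the gene with the most negative value, for the lysosomal membrane gene with the higher value among the members and for the direct activator of mTORC1, chosen after their values were seen. TFEB and TFE3, the transcription factors that mTORC1 keeps out of the nucleus, bind an E-box with the core CACGTG, and FOXO factors bind GTAAACA. Each line gives the 250 bases before the gene start from RefSeq (build GRCm38.p6), 5′ to 3′ on the strand of the gene, with CACGTG in capitals.
Map1lc3b (chr8:121590188-121590437, plus strand): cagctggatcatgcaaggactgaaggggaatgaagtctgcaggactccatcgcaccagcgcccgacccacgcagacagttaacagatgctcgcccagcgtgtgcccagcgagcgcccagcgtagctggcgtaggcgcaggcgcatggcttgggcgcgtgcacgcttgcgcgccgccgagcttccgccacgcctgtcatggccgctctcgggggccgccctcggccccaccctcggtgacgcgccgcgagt
Lamp1 (chr8:13158911-13159160, plus strand): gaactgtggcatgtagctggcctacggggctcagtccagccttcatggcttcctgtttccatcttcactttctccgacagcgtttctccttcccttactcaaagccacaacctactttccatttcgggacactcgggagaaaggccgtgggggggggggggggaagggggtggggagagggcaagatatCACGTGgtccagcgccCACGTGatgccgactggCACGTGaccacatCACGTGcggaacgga
Rheb (chr5:24842362-24842611, minus strand): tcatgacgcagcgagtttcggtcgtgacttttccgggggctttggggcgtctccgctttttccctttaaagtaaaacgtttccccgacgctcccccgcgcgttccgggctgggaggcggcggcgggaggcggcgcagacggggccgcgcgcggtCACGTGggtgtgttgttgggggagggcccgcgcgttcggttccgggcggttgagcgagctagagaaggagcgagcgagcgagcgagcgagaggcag

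The Lamp1 window held CACGTG 4 times, with first bases 61, 45, 28 and 15 bases before the start, and the Rheb window held it once, 96 bases before the start. CACGTG, which reads the same on both strands, was found in this window in 7 of the 39 members present in the promoter table (17.9%) and in 6.86% of all 27025 genes there, given as a description of sequence only. The 7 were Atg3, Atg5, Atg7, Bnip3, Lamp1, Rheb and Rragc. Among the 6 of them that were tested, the log2 fold changes were 0.21, 0.14 and 0.23 for Atg3, Atg5 and Atg7, and 0.29, -0.27 and -0.01 for Lamp1, Rheb and Rragc. They thus lay on both sides of 0, and none passed the threshold. GTAAACA was searched on both strands and was found in 0 of the 39 members' windows and in 3.54% of all genes.

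The core of mTORC1 and mTORC2 was measured through 6 genes, none past the threshold. Mtor, the kinase itself, had log2 intensities of 9.34 and 9.16 in controls, against 9.56 and 9.41 in LKB1-SCKO. Both LKB1-SCKO values lay above both control values, and the log2 fold change was 0.23 (SE 0.143, adjusted p = 0.394). Mlst8, a subunit shared by both complexes, stood at 10.21 and 9.90 in controls and at 10.36 and 10.44 in LKB1-SCKO, without overlap (log2 fold change 0.34, SE 0.158, adjusted p = 0.277). Its 3 probes gave values from 0.33 to 0.39. This was the most positive value of the list, and its interval ran from -0.06 to 0.74.

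Rptor, which encodes raptor, the scaffold that recruits mTORC1 substrates, was at 9.10 and 8.81 in controls and 8.94 and 8.96 in LKB1-SCKO. The LKB1-SCKO values fell between the control values, with a log2 fold change of -0.01 (adjusted p = 0.986) and an interval from -0.39 to 0.38. Rictor, the scaffold of mTORC2, was at 10.34 and 10.23 in controls and 10.03 and 10.13 in LKB1-SCKO at its brightest probe (log2 fold change -0.21, adjusted p = 0.415). Its 5 detected probes ran from -0.30 to 0.38 and differed in sign, 3 below and 2 above 0, so the direction for Rictor depended on the probe. The dim probe at -0.22 was detected on 1 of 2 LKB1-SCKO arrays and so was kept through the controls only. Akt1s1, which encodes the mTORC1 inhibitor PRAS40, had a log2 fold change of 0.13 (adjusted p = 0.636), and its pools overlapped.

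Deptor, an inhibitor that binds mTOR in both complexes, read differently at its 2 detected probes. At the brighter probe it was at 10.64 and 10.46 in controls and 10.32 and 10.68 in LKB1-SCKO, a log2 fold change of -0.05 (adjusted p = 0.890) with overlapping pools. At the dimmer probe, detected on 1 control array and both LKB1-SCKO arrays and so kept through the group where it was higher, it was at 5.56 and 5.13 in controls and 6.17 and 5.98 in LKB1-SCKO. That probe gave 0.73 (SE 0.197, adjusted p = 0.133 over all 19732 kept probes), and its pools did not overlap.

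Among the switches upstream of mTORC1, no gene passed. Tsc1 and Tsc2 encode the complex that turns off the small GTPase RHEB. Tsc2 was at 11.39 and 11.68 in controls and 11.18 and 11.57 in LKB1-SCKO, with overlapping pools (log2 fold change -0.16, adjusted p = 0.666), and its other probes gave -0.03 and 0.14. Tsc1 was at 7.64 and 7.79 against 7.44 and 7.74, also overlapping (log2 fold change -0.13, adjusted p = 0.690), and its other kept probes, each kept through the genotype where it was higher, gave 0.37 and -0.28. The probes of Tsc2 differed in sign, and those of Tsc1 did so only with these dim probes.

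Rheb, the GTPase that activates mTORC1 directly, was at 11.92 and 12.12 in controls, against 11.78 and 11.72 in LKB1-SCKO. The groups did not overlap, with a log2 fold change of -0.27 (SE 0.139, adjusted p = 0.321). The Rag GTPases bring mTORC1 to the lysosome when amino acids are present. Rragc stood at -0.01 (adjusted p = 0.973), with 12.06 in LKB1-SCKO 1 above and 11.64 in LKB1-SCKO 2 below both control values of 11.88 and 11.85. Rragd, a partner of the same kind, was at 6.35 and 6.43 in controls and 6.04 and 6.54 in LKB1-SCKO at its brighter probe, where the pools overlapped (log2 fold change -0.10, adjusted p = 0.800). Its other probe gave 0.38 (adjusted p = 0.282 over all kept probes). The only named probe of Rraga was not detected on any array, with signals from 138 to 160, and the only one of the S6 kinase gene Rps6kb2 was detected on 1 array, so neither was tested. The S6 kinase gene Rps6kb1 had no named probe.

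The genes that start the autophagosome showed small differences in both directions. Of 8 tested, 4 were above and 4 below 0, and values ran from -0.21 to 0.23. Ulk1 and Ulk2 encode the kinases that start autophagy. Ulk1 was at 9.28 and 9.17 in controls and 9.38 and 9.44 in LKB1-SCKO (log2 fold change 0.19, adjusted p = 0.450). Ulk2 was at 9.83 in both control pools and at 9.61 and 9.62 in LKB1-SCKO (log2 fold change -0.21, SE 0.124, adjusted p = 0.368). The groups did not overlap for either gene at its brighter probe, and the signs of both held at their second probe, at 0.14 and -0.31. At the second probe of Ulk1 the pools overlapped.

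Pik3c3, the lipid kinase that marks the site where the membrane forms, was at 10.10 and 10.16 in controls and 10.34 and 10.37 in LKB1-SCKO, without overlap (log2 fold change 0.23, SE 0.126, adjusted p = 0.351). Becn1, its regulatory partner beclin, had overlapping pools at its brightest probe (-0.06, adjusted p = 0.833). Its other detected probe was at 7.11 and 7.06 against 6.53 and 6.49 and gave -0.57 (SE 0.136, adjusted p = 0.106 over all kept probes), so that the 2 probes of Becn1 shared a sign but not a size. Wipi1 and Wipi2 encode proteins that bind the lipid made by this kinase. Wipi1 was at 10.39 and 10.45 in controls and 10.63 and 10.59 in LKB1-SCKO (log2 fold change 0.18, adjusted p = 0.442), while its other 2 probes gave -0.08 and -0.31, opposite in sign. Wipi2 had 3 probes below 0, from -0.49 to -0.03, none past the threshold. Atg13, a ULK partner (0.18), and Atg9a, a membrane protein of the vesicles that seed the autophagosome (-0.07), had overlapping pools. Pik3r4 was not detected at its only probe, and Atg14 had no named probe.

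The conjugation enzymes attach LC3 and GABARAP proteins to the membrane, and 5 of 6 tested had values above 0, none past the threshold. Atg7, the activating enzyme, was at 6.71 and 6.90 in controls and 6.80 and 7.27 in LKB1-SCKO, with overlapping pools (log2 fold change 0.23, SE 0.201, adjusted p = 0.550). Atg5, Atg12 and Atg16l1, which together form the ligase-like complex, were at 0.14, 0.15 and 0.07, each without overlap between genotypes and each with an adjusted p of 0.535 or above. At the second kept probe of Atg5, which gave 0.30, the pools overlapped. The values of Atg4b, a protease that processes LC3, overlapped (-0.18, adjusted p = 0.778).

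Atg3, the conjugating enzyme, was named after its values were seen because its pools disagreed most. It was at 7.28 and 5.99 in controls, against 5.51 and 8.17 in LKB1-SCKO. The 2 LKB1-SCKO pools lay below and above both control pools, 2.67 apart on the log2 scale, and the fold change of 0.21 had an SE of 0.919. This came from 1 probe, detected on all 4 arrays, since the other 2 named probes of Atg3 were not detected often enough to be tested. Without LKB1-SCKO 1 its log2 fold change was 1.54 and without LKB1-SCKO 2 it was -1.14, neither past the threshold.

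The ATG8 family, the proteins that coat the autophagosome and bind cargo receptors, held 2 of the 3 lowest values. Map1lc3b, which encodes the widely used autophagy marker LC3B, was at 9.56 and 9.62 in controls, against 8.92 and 9.01 in LKB1-SCKO. Its unprocessed signals were 894 and 945 in controls and 573 and 658 in LKB1-SCKO. Both LKB1-SCKO pools lay below both control pools, and the gap between genotypes was several times the gap within either, at 0.06 in controls and 0.09 in LKB1-SCKO. The log2 fold change was -0.62 (SE 0.129, 95% interval -0.95 to -0.30), a 1.54-fold lower level, which narrowly missed the threshold (adjusted p = 0.0699). It passed with an offset of 50, without background correction, with a background model fitted without negative controls, or with a trended and robust prior. There adjusted p lay between 0.0262 and 0.0426 (limma). It passed in these 4 of 17 alternatives only. These settings also called more of all genes, 356 to 456 up and 241 to 356 down, beside 267 and 145. Over all alternatives its log2 fold change ran from -0.72 to -0.51. Only 1 named probe measured Map1lc3b. The 250 bases before the start of Map1lc3b, shown above, held neither CACGTG nor GTAAACA.

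Gabarapl2, a GABARAP paralogue, was at 6.92 and 7.29 in controls and 6.46 and 6.77 in LKB1-SCKO. The groups did not overlap, though 6.92 in control 1 and 6.77 in LKB1-SCKO 2 were close, and the log2 fold change was -0.49 (SE 0.192, adjusted p = 0.221). Map1lc3a, which encodes LC3A, was at 10.24 and 10.08 in controls and 9.72 and 10.06 in LKB1-SCKO (log2 fold change -0.27, adjusted p = 0.401), and its second probe gave -0.21. Its difference was smaller than the gap of 0.33 between the LKB1-SCKO pools. Gabarap was at 12.94 and 13.05 in controls and 13.07 and 13.04 in LKB1-SCKO, and Gabarapl1 at 12.71 and 12.56 against 12.57 and 12.68. Both of these overlapped between genotypes, at 0.06 and -0.01, with intervals from -0.27 to 0.39 and from -0.36 to 0.33.

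**Figure D3:**
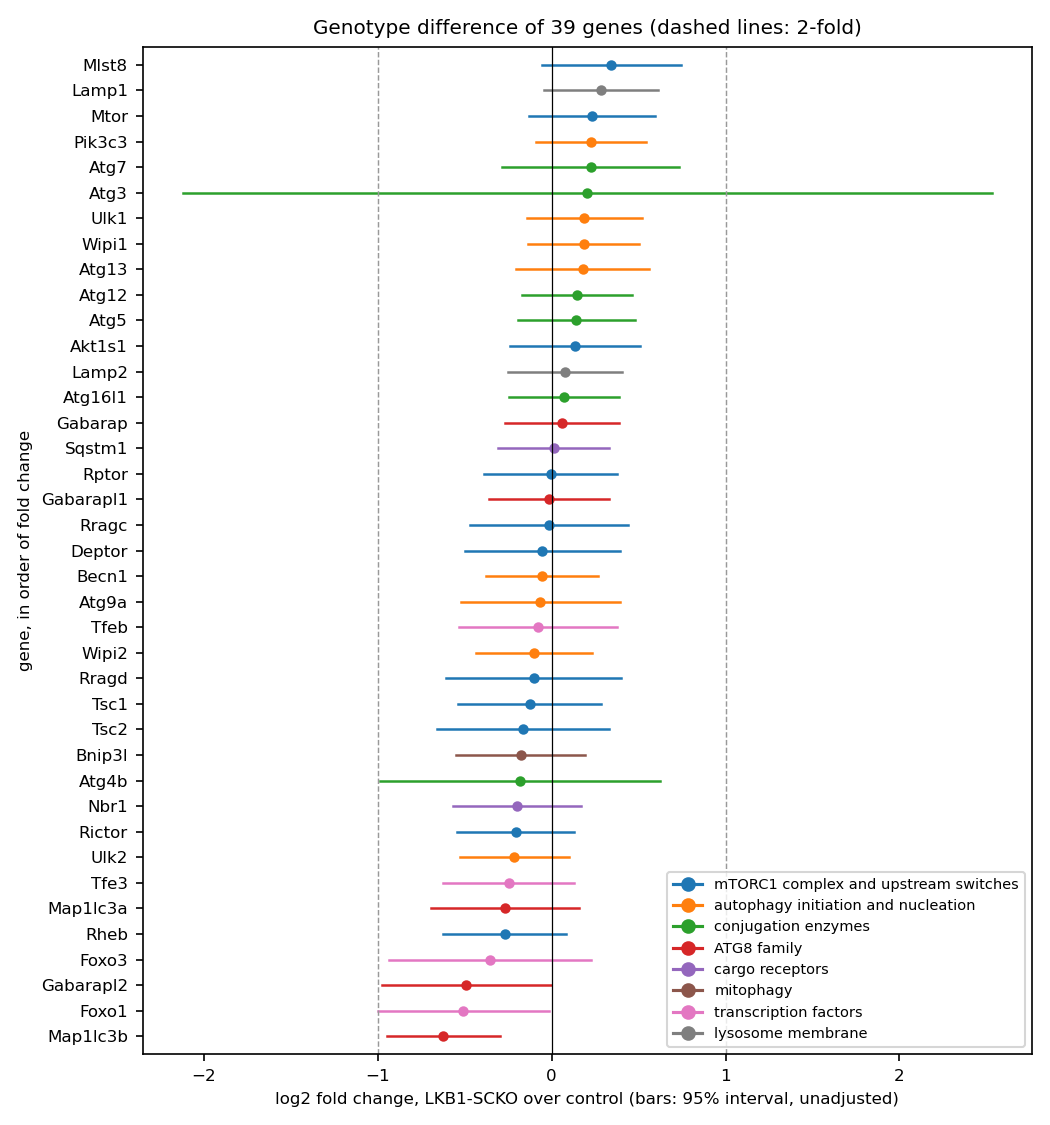
Points give the log2 fold change, LKB1-SCKO over control, of the 39 tested genes and bars the 95% interval from limma, not adjusted for multiple tests. Colours mark the role and dashed lines a 2-fold change. The intervals of Map1lc3b, Foxo1 and Gabarapl2 leave out 0 before adjustment, and that of Atg3 is the widest.

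Cargo receptors link ubiquitinated material to the ATG8 proteins. Sqstm1, which encodes p62, was at 12.33 and 12.27 in controls and 12.31 and 12.32 in LKB1-SCKO. The LKB1-SCKO values lay between those of the controls (log2 fold change 0.01, adjusted p = 0.970, interval -0.31 to 0.33). Nbr1, a receptor of similar design, was at 7.24 and 7.47 against 7.19 and 7.12, a value of -0.20 (adjusted p = 0.467) that was smaller than the gap of 0.23 between its control pools. The second kept probe of Nbr1 gave -0.33 (limma adjusted p = 0.346 over all kept probes). The groups did not overlap at either probe. Optn had no named probe.

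Of the mitophagy genes only Bnip3l could be tested. Bnip3l, which encodes the mitophagy receptor NIX, was at 12.80 and 12.62 in controls and at 12.44 and 12.62 in LKB1-SCKO, with overlapping pools (log2 fold change -0.18, SE 0.146, adjusted p = 0.520). The related receptor Bnip3 was not detected on any array at its only probe, where signals lay between 133 and 142, and Pink1 had no named probe.

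None of the 4 transcription factors of the list passed. Of these, Foxo3 and Tfeb were kept through the controls only, which favours a value below 0, so their signs are not read. FOXO1 and FOXO3 are held in the cytoplasm by AKT and switch on autophagy and atrophy genes when it is inactive. Foxo1 was at 9.75 and 10.14 in controls and at 9.58 and 9.29 in LKB1-SCKO, without overlap. Its log2 fold change was -0.51 (SE 0.195, adjusted p = 0.212) at the brighter probe and -0.60 (adjusted p = 0.227 over all kept probes) at the other. Foxo3 was dim, at 5.41 and 5.86 in controls and 5.50 and 5.06 in LKB1-SCKO, where 1 of 2 arrays detected it, and its pools overlapped (log2 fold change -0.35, adjusted p = 0.421). Tfe3 was at 7.76 and 7.99 in controls and 7.56 and 7.70 in LKB1-SCKO, without overlap (log2 fold change -0.25, adjusted p = 0.388). Tfeb, the best known activator of lysosomal genes, was near the detection limit and stood at -0.08 (adjusted p = 0.837) with overlapping pools.

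The lysosomal membrane proteins LAMP1 and LAMP2 were represented by 1 and 7 probes. Lamp1 was at 13.58 and 13.46 in controls and 13.80 and 13.81 in LKB1-SCKO. Both LKB1-SCKO values lay above both control values, with a log2 fold change of 0.29 (SE 0.130, adjusted p = 0.273). Lamp2, whose protein is needed for autophagosomes to fuse with lysosomes, was at 12.58 and 12.70 in controls and 12.70 and 12.73 in LKB1-SCKO at its brightest probe (log2 fold change 0.08, adjusted p = 0.773). Its 7 probes ran from -0.31 to 0.24, with 2 above and 5 below 0, and none passed. Among those below 0, a dim probe at -0.07 was detected on 1 of 2 LKB1-SCKO arrays and so was kept through the controls only.

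The probes of 1 gene give a view of how far the probe sets the value. Among the 39 tested genes, 17 had several kept probes, 47 in all, and for 7 of these genes the probes differed in sign (Rictor, Deptor, Tsc1, Tsc2, Rragd, Wipi1 and Lamp2). With probes detected on all 4 arrays only, 5 of these remained, without Deptor and Tsc1. For the other 10 the probes shared a sign, with Mlst8 and Foxo1 among those whose probes lay close together. Of all 69 kept probes of the list, 0 passed when adjusted over all kept probes, of which 2.52% passed (limma), and 7 had an unadjusted p under 0.05, beside 20.4% of all kept probes.

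**Figure D4:**
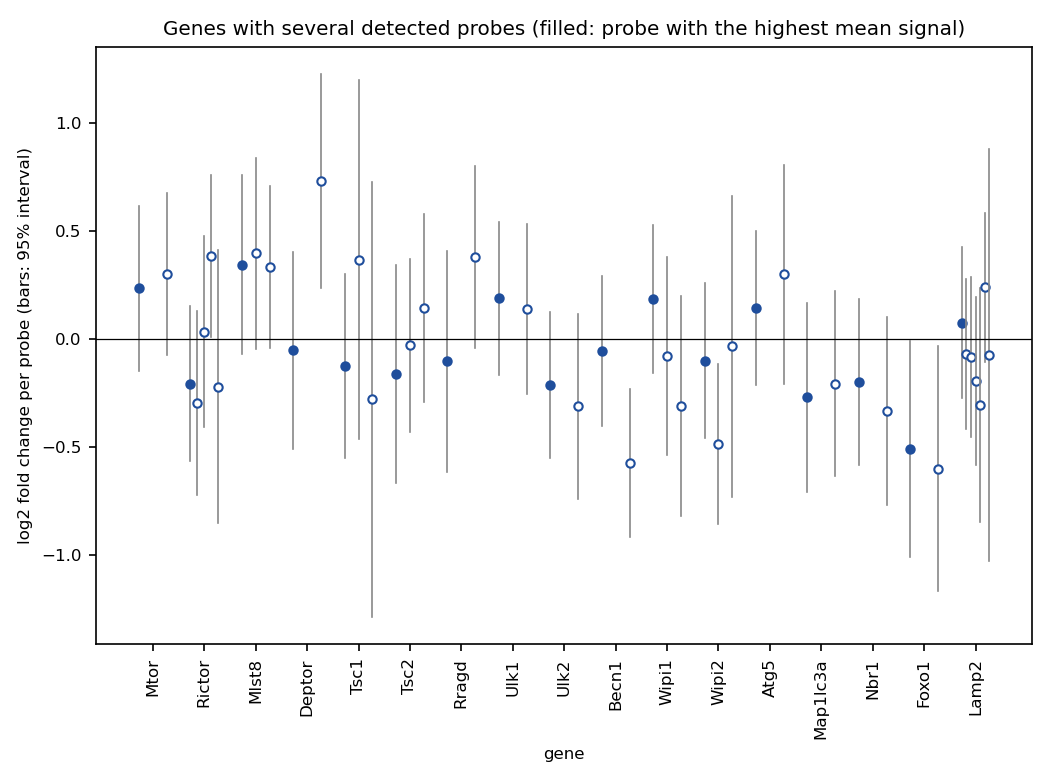
Each point is the log2 fold change of 1 probe with its 95% interval (limma, not adjusted), for the 17 genes with several kept probes; filled points mark the probe with the highest mean signal. The probes of Mlst8, Mtor and Foxo1 lie close to each other, whereas those of Rictor and Wipi1 lie on both sides of 0.

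Other genes of the same pathways were taken from 7 lists that hold no member, with 139 genes tested. In these lists 0 genes rose and 2 fell, 1.44% of the 139, which is near the 1.34% of all genes that fell and so is no result about the lists, and 26 (18.7%) had an unadjusted p under 0.05, beside 22.4% of all genes, 13 in each direction. The first that fell was Rragb, a Rag GTPase that pairs with the products of Rragc and Rragd. It was at 8.25 and 8.33 in controls, against 6.87 and 7.32 in LKB1-SCKO, well below both controls (log2 fold change -1.20, SE 0.188, adjusted p = 0.0391). Rragb no longer passed when control 1 (adjusted p = 0.115), control 2 (0.160) or LKB1-SCKO 1 (0.0697) was left out, and over all alternatives its log2 fold change stayed between -1.42 and -0.73. It was the only gene past the threshold of 21 tested for amino acid sensing, whose median was 0.00, with 11 above and 10 below 0. At an unadjusted p under 0.05 (limma) there were 4 of the 21, or 19.0%, all below 0, beside 22.4% of all genes.

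Ccng2, which encodes cyclin G2 and is a known FOXO target, also fell. It was at 8.09 and 8.07 in controls and at 7.37 and 7.32 in LKB1-SCKO, with pools of a genotype close together (log2 fold change -0.73, SE 0.125, adjusted p = 0.0472). Ccng2 no longer passed when any 1 of the 4 pools was left out, with adjusted p between 0.0923 and 0.209. The other 13 of 14 FOXO targets did not pass, 7 of the 14 were above 0, and their median was -0.06. At an unadjusted p under 0.05 (limma) there were 5 of the 14, or 35.7%, beside 22.4% of all genes. Of these 5, 2 were above and 3 below 0. Some atrophy and metabolic targets of FOXO are also skeletal muscle genes, whose markers differed between pools as given above. The part of muscle in the values of these targets was not tested.

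Among genes of the lysosome, downstream of TFEB and TFE3, more values lay above 0 than below, and none passed. Of 26 hydrolases and membrane proteins 18 were above 0, with a median of 0.14 and 0 past the threshold. At an unadjusted p under 0.05 (limma) there were 7, or 26.9%, near the 22.4% of all genes. The 2 with the highest mean signal, the saposin precursor gene Psap and the cathepsin gene Ctsb, stood at 0.06 and 0.28 (adjusted p = 0.812 and 0.386). Of 13 subunits of the V-ATPase, the proton pump that acidifies lysosomes, 11 were above 0, with a median of 0.15 and 0 past the threshold. At an unadjusted p under 0.05 (limma) there were 2, or 15.4%. Atp6ap1 stood at 0.14 and Atp6v1e1 at 0.15 (adjusted p = 0.613 and 0.534). Over all genes 51.6% were above 0. Macrophages are rich in lysosomes. The mean of their markers was higher in both LKB1-SCKO pools than in either control pool, with 12 of 15 above 0 and 3 below. The part of macrophages in these values was not tested.

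The remaining lists were spread around 0. Their shares at an unadjusted p under 0.05 (limma) were 6.25%, 14.7% and 12.5% in the order below, beside 22.4% of all genes. Among 16 genes of growth factor input, mTORC2 and mTORC1 outputs 8 were above 0, with a median of -0.03 and 1 at an unadjusted p under 0.05. Sgk1, an mTORC2 substrate kinase, was at -0.21 and Rps6, the ribosomal protein phosphorylated by S6 kinases, at 0.12 (adjusted p = 0.793 and 0.682). Among 34 other genes of autophagosome formation and fusion 19 were above 0, with a median of 0.02 and 5 at an unadjusted p under 0.05; the late endosome GTPase gene Rab7 was at -0.15 and the cargo receptor gene Tax1bp1 at -0.19 (adjusted p = 0.535 and 0.481). Among 16 other mitophagy genes 10 were above 0, with a median of 0.11 and 2 at an unadjusted p under 0.05. Vdac1, a mitochondrial outer membrane channel, was at 0.33 and Rhot1, which encodes the mitochondrial transport GTPase Miro1, at -0.40 (adjusted p = 0.262 and 0.168).

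**Figure D5:**
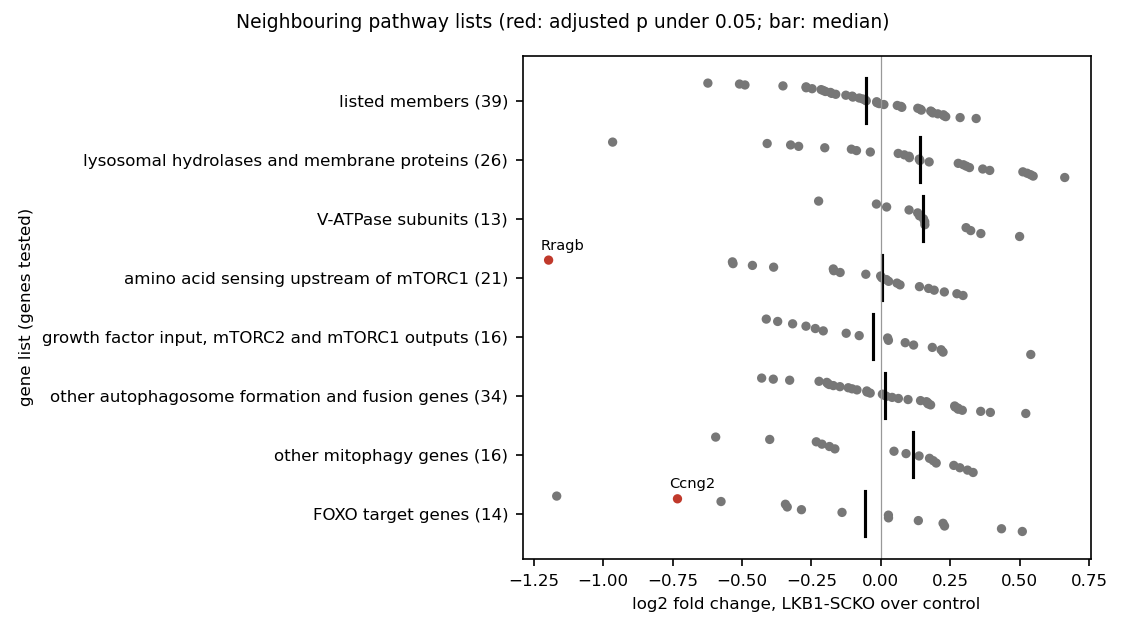
Each point is the log2 fold change, LKB1-SCKO over control, of 1 tested gene, for the 39 listed members and 7 neighbouring lists. Black bars mark medians and red points the genes past the threshold, Rragb (-1.20) and Ccng2 (-0.73); the vertical spread within a row only separates the points.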

How the data were processed

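RNA of 4 nerve pools was measured on Illumina arrays. Per the file headers, the deposited table holds, over 45281 probes, non-normalized linear intensity values and their detection p-values; the steps of the latter correspond to 936 negative controls. A further table holds the authors' processed intensity values, of the same distribution on all arrays, with steps not given in the sources used here; it served as an alternative. The submitters' processing notes list GenomeStudio (2010).

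Background was corrected with normexp of limma 3.58.1 (R 4.3.3), with negative controls estimated through detection p and an offset of 16. The offset compresses differences of dim probes. Quantile normalization and log2 followed. Probes with a detection p under 0.05 on both arrays of a genotype were kept (19732, of which 16821 had a gene), and the probe with the highest mean stood for a gene (10858 genes). Symbols came from the platform annotation and were updated through RefSeq gene identifiers (34807 of 34885 probes with 1 symbol matched). Genotypes were compared with lmFit and eBayes, two-sided, with Benjamini-Hochberg adjustment over all genes at 0.05. A fit over all kept probes served for single probes. The code was tested on simulated data.

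The members and lists were chosen with earlier results of these data known. Members were described with every pool's value if past the threshold, among the 12 largest differences, or with probes that differ in sign; promoters were to be shown for members past the threshold, and since there were none, those of 3 other members are shown; of each neighbouring list, members past the threshold or otherwise the 2 with the highest mean were named. The number of arrays limits the precision. Nerves came from separate mice, so the spread between pools holds biological and technical variation. Alternatives covered background, offset, scaling, the authors' values, detection filter, probe choice, array weights, prior, replicate block and each pool left out. No slide or scan was used as a block, since neither is given in the sources used here.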

Additional observations from a re-analysis of the deposited data

How the results depend on the processing

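Under 17 alternatives, 0 members were higher past the threshold in any, and Map1lc3b was the only member past it in some, so that 1 member was called lower without background correction, with normexp without negative controls, with an offset of 50 and with a trended and robust prior (limma log2 fold changes -0.51, -0.56, -0.59 and -0.62). Of the 39 members 22 kept their sign in all alternatives in which they were tested and 17, none called, changed it in at least 1. The median of the members was -0.13 with median scaling, which moved the median of all genes from 0.01 to -0.07, and 0.0345 without LKB1-SCKO 1; over the pools left out it ran from -0.0711 to 0.0345. Over all genes, up and down calls numbered 373 and 263 without background correction, 388 and 275 with normexp without negative controls, 356 and 241 with an offset of 50, 456 and 356 with the trended and robust prior, and from 95 to 251 up and 19 to 203 down when a pool was left out. With the replicate number as a block (replicate block) there were 132 up, 40 down and 0 members called. The numbers are not known to pair the pools, and the deviations of same-numbered pools correlated at -0.17 across genes. With the pairing crossed, an alternative added after seeing the data, 208 genes were up, 102 down and 0 members called. In the neighbouring lists, 3, 2, 1 and 4 of 139 genes were called up without background correction, with normexp without negative controls, with an offset of 50 and with the trended and robust prior. Of all 10858 genes, 373, 388, 356 and 456 were called up in these settings, so the list counts are no result about the lists. There 1 gene was called down with cyclic loess or the authors' processed values and 0 without a detection filter, with the replicate block or with the crossed block, and 0 to 1 with a pool left out. The share of up among all calls was 64.8%, and 54.8% with median scaling. Calls of Stk11, Rragb and Ccng2 held in 10, 11 and 8 of the 17 alternatives, and their log2 fold changes did not change sign. The causes of these changes were not tested. Levels of transcripts near background, such as Tfeb and Foxo3, are limited by the signal over background.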

Other observations

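Some genes of the neighbouring lists had an unadjusted p under 0.05 without passing the threshold, and they are named here after their values were seen. Of all 139 genes tested in these lists 18.7% had such an unadjusted p (limma), beside 22.4% of all genes. In the lysosome list, the glucuronidase gene Gusb was at 10.11 and 10.29 in controls, against 10.91 and 10.82 in LKB1-SCKO (log2 fold change 0.66, limma adjusted p = 0.0722). The tetraspanin gene Cd63 (0.55), the mannosidase gene Man2b1 (0.54), the hexosaminidase gene Hexa (0.53) and the mannosidase gene Manba (0.51) were above 0 in the same way, and the cathepsin gene Ctsl (-0.97) and the sulfatase gene Ids (-0.41) were below. In the amino acid sensing list the 3 such genes were below 0, namely Castor1, the arginine sensor (-0.53, adjusted p = 0.117), Kptn, a part of a complex that regulates mTORC1 at the lysosome (-0.53), and Sesn1, a stress-induced sestrin (-0.46). Among FOXO targets Klf15, a metabolic transcription factor of muscle and fat, was at 6.14 and 6.91 in controls and 5.49 and 5.23 in LKB1-SCKO, where 1 of 2 arrays detected it, so that it was kept through the controls only (-1.17, adjusted p = 0.0948). The catalase gene Cat (-0.34) was also below 0, while the stress response gene Gadd45a (0.51) and the gene of the apoptosis inducer BIM, Bcl2l11 (0.43), were above 0. Among mitophagy genes Tomm7, which encodes a small subunit of the mitochondrial import pore, stood at -0.59 (adjusted p = 0.0918), and Rhot1 is given above. The V-ATPase genes Atp6v1h (0.50) and Atp6v1b2 (0.36) were above 0. So was Lpin1 (0.54) in the list of growth factor input and mTORC1 outputs. Among genes of autophagosome formation and fusion Vps41 (0.52), Nrbf2 (0.39) and Stx17 (0.36) were above 0, and Snap29 (-0.43) and Wdr45 (-0.39) below.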
